A study of Mus musculus with 5 samples.

Results

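The SNAG-domain repressor genes Gfi1, Gfi1b, Insm1, Snai1, Snai2, Snai3, Scrt1, Scrt2 and Ovol1 are 9 of the 21938 protein-coding genes of the annotation, and were chosen by name as genes of zinc finger factors that can recruit Lsd1. Binding of Gfi1 and Lsd1 at these genes was read from ChIP-seq peak lists of 2 MG tumors, numbered 39 and 41, with each factor immunoprecipitated once from each tumor. MG tumors grow from cerebellar stem cells of C57BL/6 pups aged 5 to 7 days. The cells, sorted as Prominin1+ and lineage negative, were transduced with retroviruses for a stabilised mutant Myc and for Gfi1 and grown in NSG mice. All 4 ChIP libraries therefore carry retroviral Gfi1 and Myc, and cells of the host mouse may remain in resected tissue. The only input sample is a pool of MGB tumors, driven by Myc and Gfi1b, and which input served for which list is not stated. Peak lists hold no expression values, so that the tumor tissue could not be checked against its markers.

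The SNAG domain is a short stretch at the very N-terminus that resembles the tail of histone H3 and fits into the catalytic pocket of Lsd1 (gene Kdm1a), a histone demethylase that works with the CoREST scaffold. Zinc fingers at the other end of these proteins choose the DNA site, and the SNAG end brings the demethylase to it. Gfi1 and Gfi1b are known from blood cell development, Snai1 and Snai2 from epithelial-mesenchymal transition and the neural crest, Scrt1, Scrt2 and Insm1 from neurons leaving the progenitor state, and Ovol1 from epithelial differentiation.

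The label of the set was checked on the coding sequence. The first 30 coding bases of the principal transcript of each gene are given here because they encode the SNAG end, read 5′ to 3′ from the GRCm38 genome, with capitals at every base that differs from Gfi1.
Gfi1: atgccgcgctcattcctggtcaagagcaag
Gfi1b: atgccAcgGtcCttTctAgtGaagagTaag
Insm1: atgccCcgcGGGttTctggtGaagCgcaGC
Snai1: atgccgcgctcCttcctggtcaGgaAGCCg
Snai2: atgccgcgctcCttcctggtcaagaAACaT
Snai3: atgccgcgctcCttcctggtGaaAaCGCaC
Scrt1: atgccCAgGtcCttcctggtTaagaAGGTC
Scrt2: atgccgcgTtcCttcctggtGaagaAGaTC
Ovol1: atgccTcgcGcGttcctggtGaagaAGCCA
In all 9 genes the reading frame opened with the same start codon. Over the first 20 codons, Gfi1b encoded the same residue as Gfi1 at 18. The other genes matched at 8 to 10 of the 20 codons, with 8 for Snai1 and Ovol1 and 10 for Snai2 and Scrt2. In the first 10 codons these 7 genes matched at 7 or 8 positions, so that most of the identity lay at the very start.

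The lists of the authors held 36836 Gfi1 peaks in tumor 39 and 25078 in tumor 41, and 30367 and 33213 Lsd1 peaks. Each peak has a score, whose definition is not given with the lists. A score was therefore used only as a percentile, the share of peaks of the same list with a score at or below it. With 2 libraries per factor, an exact permutation test could not go below p = 0.333, so no test was run, and values are given for each library with their SD.

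Peaks lay near most of the SNAG-domain genes, and Gfi1b was the exception. In the gene body and 10 kb on either side, 8 of the 9 genes had a Gfi1 peak in tumor 39 (72.2% of protein-coding genes did), and 8 did so in tumor 41 (63.4%). For Lsd1 the counts were 7 in tumor 39 (66.7%) and 8 in tumor 41 (69.1%). A peak in all 4 libraries was found in 7 windows, those of all genes but Gfi1b and Snai2, against 61.7% of protein-coding genes. These windows held 81 peaks over the 4 libraries. For 57 of them, or 70.4%, the closest transcription start site (TSS) was that of the SNAG-domain gene itself. These were 17 of 25 and 14 of 18 for Gfi1 in tumors 39 and 41, and 12 of 17 and 14 of 21 for Lsd1. No such share was computed over the windows of all protein-coding genes, so the 70.4% has no background.

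**Figure D1:**
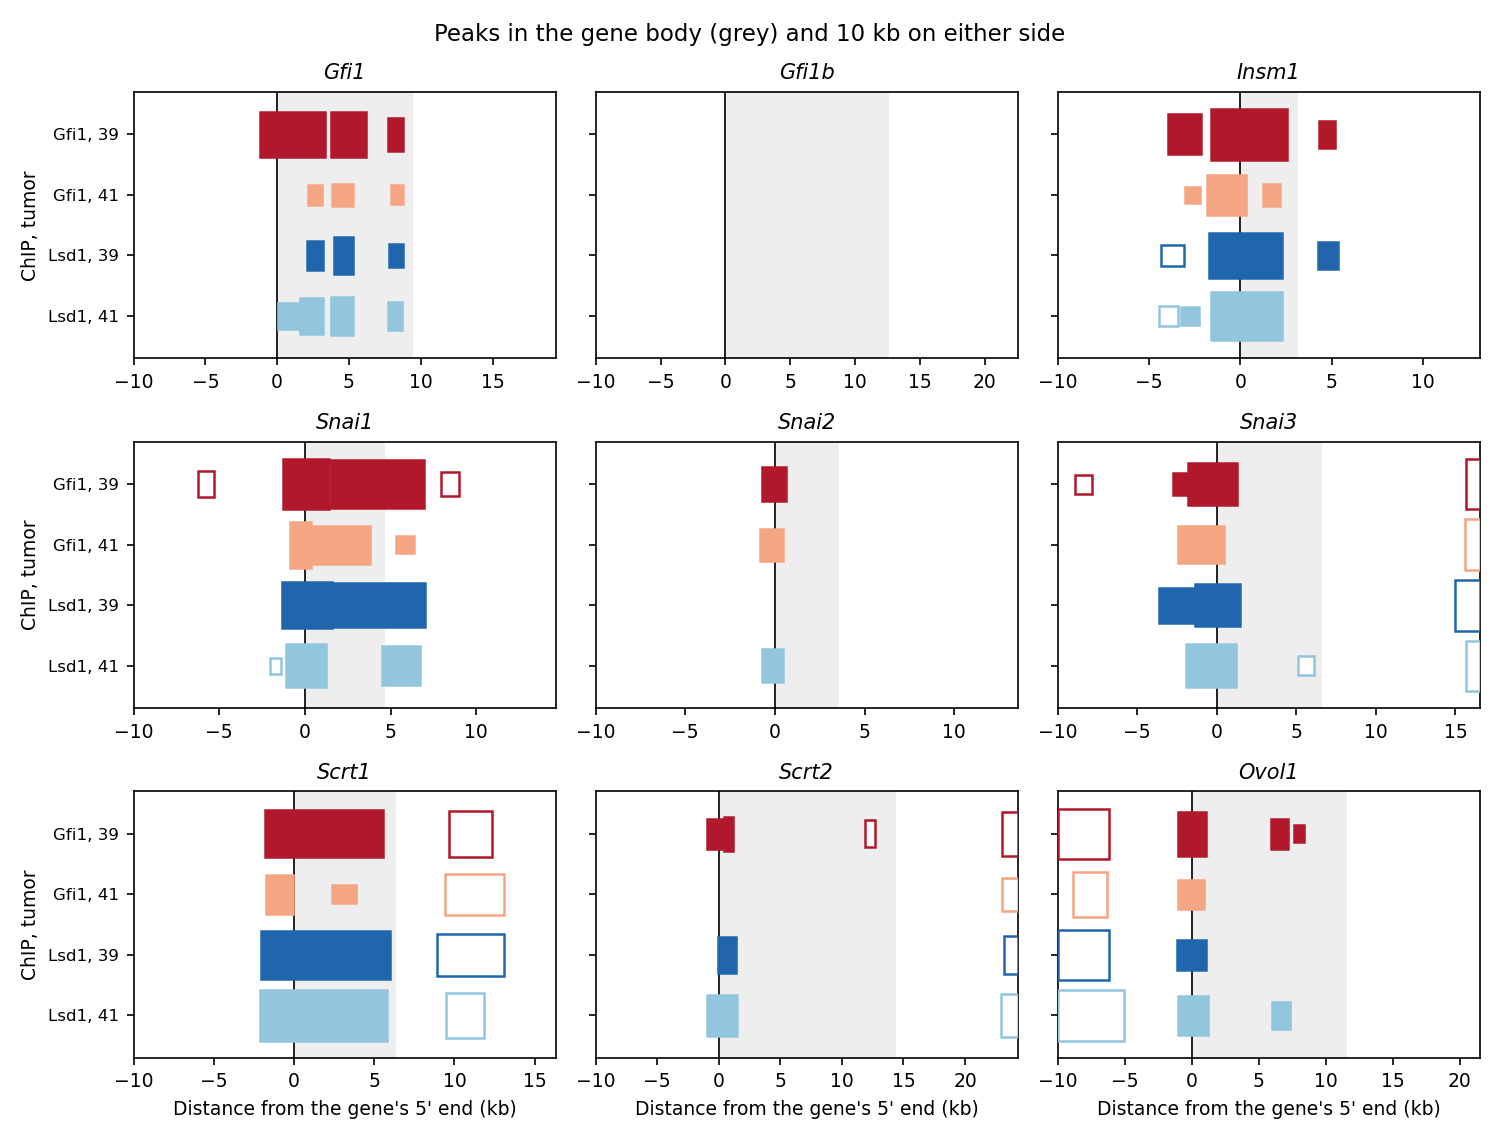
Peaks of the 4 libraries in the window of each gene, against the distance from the gene's 5′ end in kb in the direction of transcription. Grey marks the gene body. Bars are drawn at the width of the peak, end at the edge of the window and are taller for a higher score percentile, filled where the gene's own TSS is the closest and open where another gene's is. The window of Gfi1b is empty, and open bars stand at one edge of the windows of Snai3, Scrt2 and Ovol1.

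At the promoter, within 1000 bp of a TSS of the gene, 6 of the 9 genes had a peak in every library, namely Gfi1, Insm1, Snai1, Snai3, Scrt1 and Ovol1, against 53.1% of protein-coding genes. Gfi1 peaks were at 8 promoters in tumor 39 (background 65.0%) and at 7 in tumor 41 (54.3%), and Lsd1 peaks at 7 (58.5%) and 8 (61.7%). Snai2 had no Lsd1 peak in tumor 39 and Scrt2 no Gfi1 peak in tumor 41. A Gfi1 peak in the upper 20% of the score was present at 5 promoters in tumor 39 (background 36.2%) and at 1 in tumor 41 (24.6%), and an Lsd1 peak of this rank at 3 (28.1%) and 2 (32.2%). The median over the 9 genes of the best promoter percentile, with 0 for no peak, was 80.4 and 46.1 for Gfi1 in tumors 39 and 41 and 58.0 and 73.0 for Lsd1, and over all protein-coding genes it was 67.6, 31.5, 50.5 and 60.5.

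**Figure D2:**
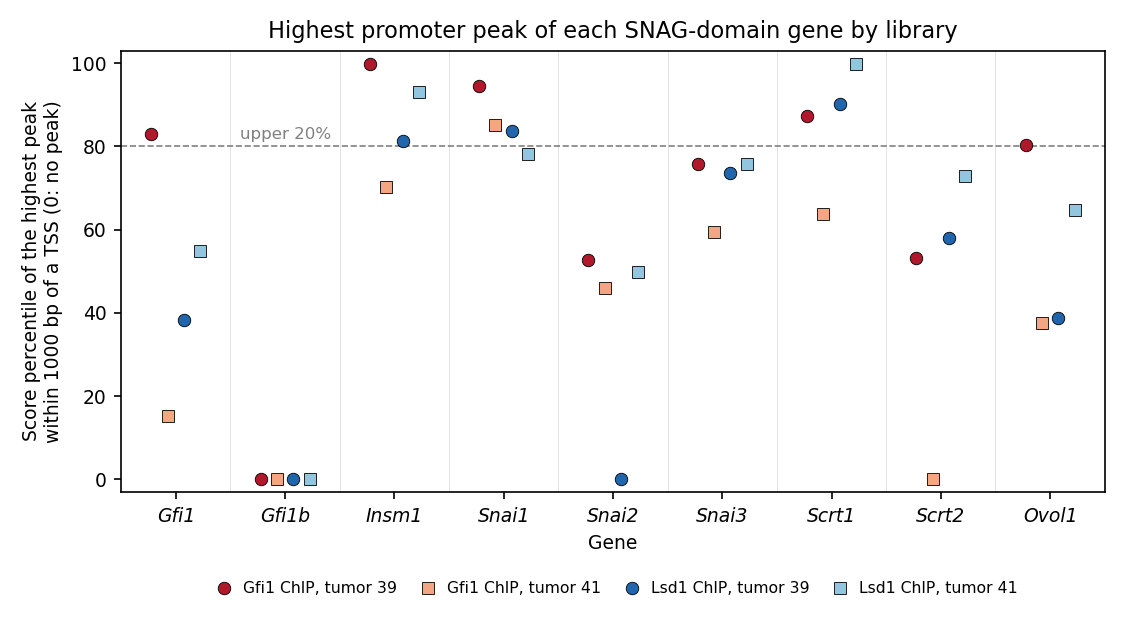
Score percentile of the highest peak within 1000 bp of a TSS, for each gene and library, with 0 for no peak and a dashed line at the upper 20%. Each point is 1 library. Insm1, Snai1 and Scrt1 have the highest points, Gfi1b lies at 0 throughout, and the Gfi1 gene spreads from 15.3 to 83.0.

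High-confidence peaks were defined as replicate 1 peaks of the upper 20% with at least 50% of their length in such peaks of replicate 2, which gave 4387 Gfi1 and 5181 Lsd1 peaks. The score stood in for the enrichment that the authors ranked by. These are not the sets of the authors, since the paper reports more peaks for each factor. None of the 9 promoters had a high-confidence Gfi1 peak, against 22.9% of protein-coding genes. This count rested on Gfi1 of tumor 41, since 5 of the 9 had an upper 20% peak in tumor 39 alone (background 36.2%) and 1 in tumor 41 alone (24.6%). High-confidence Lsd1 peaks were found at 2 promoters, those of Insm1 and Scrt1, against 25.9%. Snai1 came close for Gfi1, with upper 20% peaks in both tumors that shared 44.4% of the 2678 bp of the replicate 1 peak. The replicate 2 peak, of 1188 bp, lay by 100% within that of replicate 1. The rule took the share of the replicate 1 peak only, and the share of the replicate 2 peak was not tried as an alternative. At the promoters of Gfi1, Insm1, Scrt1 and Ovol1 the upper 20% Gfi1 peak of tumor 39 met no peak of this rank in tumor 41.

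Of the genes for neuronal differentiation, Insm1 carried broad, high-ranking peaks of both factors. Insm1, a gene with 1 exon on chromosome 2 from 146221921 to 146225020, had promoter peaks at Gfi1 percentile 99.7 in tumor 39 and 70.2 in tumor 41, and at Lsd1 percentile 81.3 and 93.0. The first of these is a score of 3100, which the promoter peaks of Rcor1, Rcor3, Hmg20b, Gse1 and Zmym2 share in that library, so that it does not rank them. The Lsd1 peaks ran from 146220190 to 146224216 and from 146220323 to 146224183 and covered 100% of the coding bases in both tumors. The Gfi1 peak of tumor 39, of 4191 bp, covered them as well. In tumor 41 the Gfi1 promoter peak, of 2107 bp, ended upstream of the start codon, and a separate peak of 974 bp at percentile 20.6 covered 44.7% of the coding bases. A smaller peak 4305 bp from the TSS for Gfi1 and 4267 bp for Lsd1 was present in tumor 39 for both factors and in neither library of tumor 41.

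Scrt1 had the widest promoter peak of the set in every library but Gfi1 of tumor 41. Scrt1 encodes a neuronal repressor of the Snail superfamily and lies on chromosome 15 from 76516203 to 76522499, on the minus strand. Its Lsd1 peaks measured 8044 bp in tumor 39 and 7940 bp in tumor 41, which stood at percentile 98.4 and 98.6 of the widths of their lists, and at percentile 90.2 and 99.8 of the score. Gfi1 covered the same stretch with 1 peak of 7389 bp in tumor 39, at score percentile 87.4. In tumor 41 Gfi1 split into a promoter peak of 1704 bp at percentile 63.9 and a peak of 1548 bp at percentile 7.59 over the last exon. Thus both Lsd1 libraries and 1 of the 2 Gfi1 libraries had peaks over most of this gene from end to end.

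Its paralog Scrt2, on chromosome 2 from 152081529 to 152095802, had lower-ranking peaks over its promoter. Lsd1 peaks there stood at percentile 58.0 and 73.0 in tumors 39 and 41. For Gfi1, tumor 39 had 2 narrow peaks of 1275 and 810 bp at percentile 40.8 and 53.3, and tumor 41 had none. The last coding exon, 11533 bp from the TSS, had a Gfi1 peak in tumor 39 at percentile 31.8 and no peak in the other libraries.

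In the Snail family Snai1 ranked first for Gfi1, and its peaks reached past the gene. Snai1, a repressor of E-cadherin, lies on chromosome 2 from 167538195 to 167542814. Gfi1 promoter peaks stood at percentile 94.5 and 85.2 in tumors 39 and 41, which was the only Gfi1 peak of tumor 41 in the upper 20% at these 9 promoters, and those of Lsd1 at 83.7 and 78.1. In tumor 39 a further peak of 5410 bp for Gfi1 and of 5445 bp for Lsd1 ran from the body of the gene to beyond its 3′ end, at percentile 90.5 and 79.0. In tumor 41 the stretch past the 3′ end held a Gfi1 peak of 1029 bp at percentile 3.27 and an Lsd1 peak of 2210 bp at percentile 65.4, and a Gfi1 peak of 3381 bp at percentile 63.7 lay over the gene body. Both Gfi1 values at this promoter were above both Lsd1 values, with means of 89.8 ± 6.53 for Gfi1 and 80.9 ± 4.03 for Lsd1 (SD, n = 2).

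Snai2 and Snai3 were lower. Snai2, also called Slug, lies on chromosome 16 from 14705852 to 14709385 and had 1 peak over its TSS in each library but Lsd1 of tumor 39, with percentiles of 52.7 and 46.1 for Gfi1 and 49.9 for Lsd1 in tumor 41. No other peak lay in its window. Snai3, the least studied of the family, lies on chromosome 8 from 122454208 to 122460733 and had promoter peaks at 75.9 and 59.4 for Gfi1 and at 73.7 and 75.8 for Lsd1. The Lsd1 values lay close to each other, at 74.8 ± 1.49 (SD, n = 2).

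Ovol1, on chromosome 19 from 5549136 to 5560646, had a promoter peak of about equal width in each library, from 1912 to 2187 bp. The promoter is shared with AC126029.1, whose TSS was as close. The rank of this peak differed between the tumors, at percentile 80.4 and 37.5 for Gfi1 and 38.7 and 64.7 for Lsd1, so that the factor with the higher rank was Gfi1 in tumor 39 and Lsd1 in tumor 41. An intronic peak 4682 bp from the TSS for Gfi1 in tumor 39 and 4784 bp for Lsd1 in tumor 41 was of low rank, at 42.3 and 34.5.

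The neighbours of several SNAG-domain genes took the highest peak of the window. At Snai3 this was Mvd, a gene of the mevalonate pathway, with percentiles of 94.0 to 97.8 over the 4 libraries. In the Ovol1 window it was Ap5b1, a subunit of an adaptor protein complex, with 81 to 97.8. At Scrt2 it was Srxn1, which encodes sulfiredoxin, with 48.0 to 78.1. This held in 4 of 4 libraries for each of these 3 genes. How often a neighbour takes the highest peak was not computed for all protein-coding genes, so this count has no background. The window of Scrt1 also took in the promoter of Dgat1, a gene of triglyceride synthesis, which had the highest peak in Gfi1 of tumor 41 at 70.1. The only Gfi1 peak in the Scrt2 window in tumor 41 was that of Srxn1. Counts over windows therefore include peaks that lie at other genes, and the promoter counts do not rest on them.

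The Gfi1 gene itself had peaks in all 4 libraries at the same 3 places, of which 2 lay over 1000 bp downstream of its last TSS. Gfi1 lies on the minus strand of chromosome 5 from 107716657 to 107726036 and is also carried by the retrovirus. The peak over exon 4 stood at percentile 83.0 and 15.3 for Gfi1 in tumors 39 and 41 and at 38.2 and 55.0 for Lsd1. Over exons 5 and 6 the percentiles were 81.6, 20.7, 58.1 and 62.0 in the same order. Over the last exon they were 49.0, 10.8, 23.5 and 36.4. In each library the last exon had a lower rank than exons 5 and 6, and in tumor 41 no Gfi1 peak of this gene stood above percentile 20.7.

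**Figure D3:**
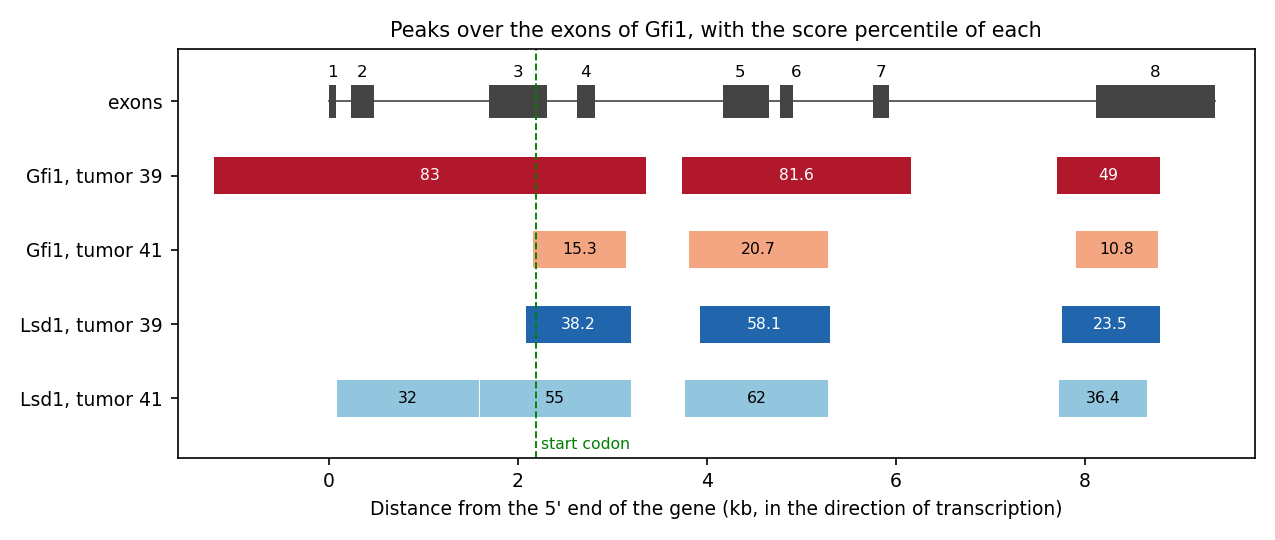
Peaks over the 8 exons of the Gfi1 gene, which are drawn at the top and numbered, against the distance from the 5′ end in kb. Each bar is 1 peak with its score percentile written in it, and the dashed line is the start codon. Peaks of all 4 libraries cover exons 4, 5, 6 and part of exon 8, and only the Gfi1 peak of tumor 39 covers exon 7.

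The peaks of the 4 libraries had similar edges at the last exon and less so at the others. At the last exon, which is coding from 107717743 to 107717918, the starts differed by at most 137 bp and the ends by at most 211 bp, and 745 bp were common to the 4 libraries. The peaks over exons 5 and 6 shared 1360 bp, with starts up to 882 bp and ends up to 183 bp apart. Those over exon 4 shared 989 bp, with starts up to 209 bp and ends up to 3373 bp apart. The far start over exons 5 and 6 and the far end over exon 4 were both those of Gfi1 in tumor 39. Exons 4, 5 and 6, which are all coding, were covered by 100% in each library, while exon 7, of 166 coding bases, was covered by 100% for Gfi1 in tumor 39 and by 0.00% in the other libraries. Intron 7, of 2191 bp, was covered by 9.36%, 16.5% and 17.8% in Gfi1 of tumor 41 and Lsd1 of tumors 39 and 41, and intron 4, of 1359 bp, by 46.6% to 71.7% over the 4 libraries. Short introns 3 and 5, of 315 and 118 bp, were covered by 100% in every library.

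At the 5′ end of Gfi1 the libraries differed. The start codon of the principal transcripts is in exon 3, at 107723838, and it was inside a peak in all 4 libraries. In Gfi1 of tumor 41 this peak ended 37 bp upstream of the codon, in Lsd1 of tumor 39 114 bp upstream, in Lsd1 of tumor 41 599 bp upstream and in Gfi1 of tumor 39 3410 bp upstream. As a result, none of the 3 annotated TSSs lay in a peak in Gfi1 of tumor 41 or Lsd1 of tumor 39, where the nearest peak was 468 bp and 391 bp from a TSS. All 3 lay in a peak in Gfi1 of tumor 39, and 2 of them in Lsd1 of tumor 41. In each of these libraries a peak that held a Gfi1 TSS also held a TSS of the neighbouring gene A430072P03Rik. In Gfi1 of tumor 41 and Lsd1 of tumor 39 the gene counts as having a promoter peak because the peak over exon 4 comes within 1000 bp of the most downstream TSS. Without Gfi1, 5 of the other 8 genes had a promoter peak in every library, against 53.1% of protein-coding genes. The lists carry no reads, so that binding at the gene and reads from the retroviral cDNA cannot be told apart.

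Peaks on the last coding exon were also compared among the SNAG-domain genes, of which 8 have that exon over 1000 bp from their TSSs. A peak there in all 4 libraries was found in 2 of the 8, Gfi1 and Scrt1, against 4.81% of 17349 protein-coding genes. This background was not matched for gene length or for the distance to a TSS, which was 6425 bp in Gfi1 and 2229 bp in Scrt1. Gfi1 is also the gene carried by the retrovirus, so the 2 shares cannot be compared directly. In Scrt1 the peak on the last coding exon belonged to the wide peak that began at the promoter in 3 of the libraries. Snai1 had a peak on this exon in 3 libraries, Snai3 and Scrt2 in 1, and Gfi1b, Snai2 and Ovol1 in none. Genes with exon and intron coverage most like Gfi1 were Hip1r, Phox2a, Atn1, Cog1 and Esrra, among 17794 genes compared over 8 values, 1 for coding exons and 1 for introns in each library. They differed from Gfi1 by 5.79 to 7.02 percentage points per value on average. In Hip1r, for example, 61.8% of the coding bases and 28.3% of the intron bases were in Gfi1 peaks of tumor 41, and in Gfi1 these were 77.7% and 27.5%.

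Gfi1b, the driver of the MGB tumors, had no peak in its window in any library. The only input sample is a pool of these tumors, and whether it lowered peak calls at the Gfi1b exons was not tested. Gfi1b lies on chromosome 2 from 28609450 to 28621982, and 26.1% of protein-coding genes likewise had no peak in their windows in the 4 libraries. The number of CpG dinucleotides within 500 bp of a TSS was lowest for this gene, at 11 to 20 over its TSSs. For the other genes the highest count of any TSS ran from 51 at Snai2 to 126 at Insm1, with 86 at Snai1, and the median over all protein-coding genes was 50.

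The promoters of Snai1, Gfi1 and Gfi1b are given here because they span the range from a peak in every library to none. RefSeq promoters were matched for 3 of the 9 genes, and Insm1, Snai2, Snai3, Scrt1, Scrt2 and Ovol1 were not matched. Each holds 300 bases around a start site in GRCm38.p6, with capitals at matches to AATC, the core of the Gfi1 motif, and CAGGTG, an E-box bound by Snail and Scratch factors, on either strand.
Snai1, chr2:167537945-167538244, plus strand: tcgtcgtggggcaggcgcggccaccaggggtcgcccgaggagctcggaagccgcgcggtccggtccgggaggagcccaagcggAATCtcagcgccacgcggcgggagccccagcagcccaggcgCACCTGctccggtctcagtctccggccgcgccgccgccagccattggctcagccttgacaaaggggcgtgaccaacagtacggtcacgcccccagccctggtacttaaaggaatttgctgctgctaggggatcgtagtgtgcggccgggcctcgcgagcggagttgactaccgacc
Gfi1, chr5:107725756-107726055, minus strand: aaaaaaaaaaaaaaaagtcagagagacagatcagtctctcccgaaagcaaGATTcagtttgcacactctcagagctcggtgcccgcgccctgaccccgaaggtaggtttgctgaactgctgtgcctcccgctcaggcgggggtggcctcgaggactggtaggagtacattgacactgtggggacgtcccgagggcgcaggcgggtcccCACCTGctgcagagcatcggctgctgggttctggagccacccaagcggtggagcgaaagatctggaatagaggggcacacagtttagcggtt
Gfi1b, chr2:28621933-28622232, minus strand: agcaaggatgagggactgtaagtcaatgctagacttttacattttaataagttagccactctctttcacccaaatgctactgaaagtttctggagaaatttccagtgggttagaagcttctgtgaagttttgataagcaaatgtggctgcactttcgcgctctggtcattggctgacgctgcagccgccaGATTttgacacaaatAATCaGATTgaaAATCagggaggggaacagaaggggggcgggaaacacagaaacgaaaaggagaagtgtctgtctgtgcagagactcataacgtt
The Snai1 promoter lay by 100% in peaks of each library and held 34 CpGs, 1 AATC and 1 CAGGTG. The upstream Gfi1 promoter held 16 CpGs, 1 AATC and 1 CAGGTG, and lay by 100% and 66.0% in peaks of Gfi1 in tumor 39 and Lsd1 in tumor 41, and by 0.00% in the other libraries. The Gfi1b promoter held 7 CpGs, 4 AATC and no CAGGTG, and no peak. Of 32851 RefSeq promoters of this length, 73.1% held AATC and 20.2% held CAGGTG. The longer AAATCAC, which 3.20% held, was in none of these promoters, nor in that of the Gfi1 start site further downstream.

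The share of the window in peaks differed widely among the genes. At Scrt1, 26.2% to 46.4% of the window was covered over the 4 libraries, at Snai1 21% to 41% and at Insm1 16.9% to 29.8%. Snai2 had 0.00% to 5.73% and Scrt2 3.78% to 12.4%, and Gfi1b had none. The medians over all protein-coding genes were 3.23% to 4.24%, but this share depends on the length of the gene, and the SNAG-domain genes are short, from 3100 bp for Insm1 to 14274 bp for Scrt2.

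**Figure D4:**
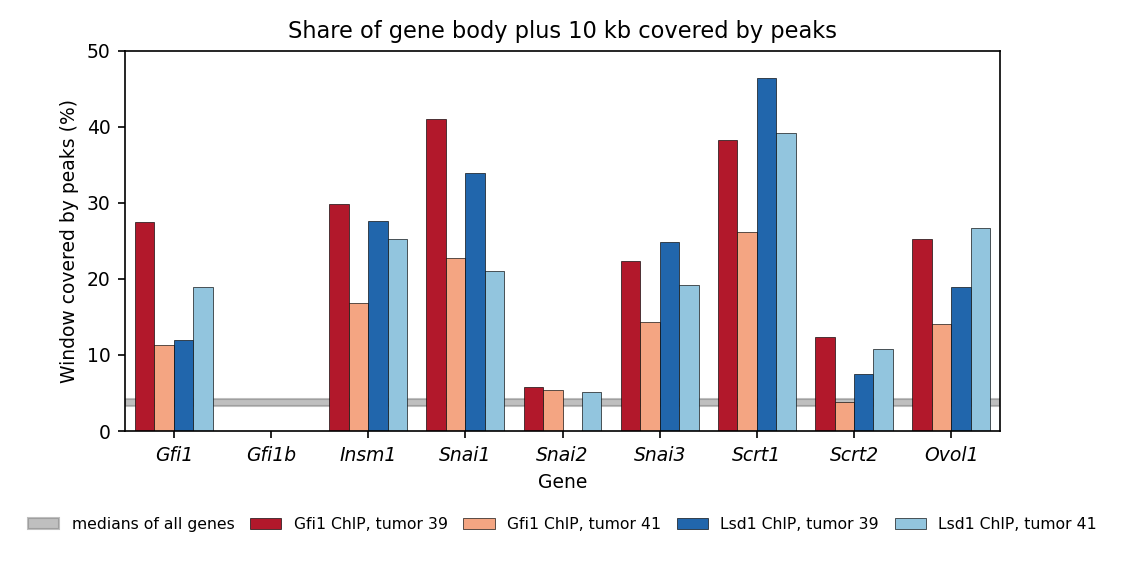
Share in percent of the gene body plus 10 kb on either side that lies in peaks, for each gene and library, with bars from 0. The grey band spans the medians of all protein-coding genes in the libraries, 3.23% to 4.24%. Scrt1 reaches the highest value, 46.4%, and Gfi1b is at 0 throughout.

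Gfi1 and Lsd1 were compared within each tumor. In tumor 39, 18 of the 25 Gfi1 peaks in the windows overlapped an Lsd1 peak, which is 72.0% (69.0% of all Gfi1 peaks), and all 17 Lsd1 peaks overlapped Gfi1 (77.0% of all Lsd1 peaks). In tumor 41, all 18 Gfi1 peaks overlapped Lsd1 (88.9% of all), and 15 of the 21 Lsd1 peaks overlapped Gfi1, or 71.4% (62.6%). In each tumor the factor with fewer peaks in the windows was thus always accompanied by the other, whichever factor that was. Promoter peaks of both factors were found at 7 genes in each tumor, with Scrt2 among them in tumor 39 and Snai2 in tumor 41, and Lsd1 had the higher percentile at 2 in tumor 39 and at 6 in tumor 41. Over all protein-coding genes with both, these shares were 26.5% and 71.8%, so that the direction went with the tumor. Snai1 and Scrt1 kept their direction, with differences (Lsd1 minus Gfi1) of -10.8 and -7.1 percentiles at Snai1 and of 2.8 and 35.9 at Scrt1 in tumors 39 and 41. The mean difference was -8.95 ± 2.50 at Snai1 and 19.4 ± 23.5 at Scrt1 (SD, n = 2), and the second of these was smaller than its SD.

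By mean percentile of the promoter peak, the order for Lsd1 was Scrt1 (95.0 ± 6.84), Insm1 (87.2 ± 8.30), Snai1 (80.9 ± 4.03), Snai3 (74.8 ± 1.49), Scrt2 (65.5 ± 10.6), Ovol1 (51.7 ± 18.4), Gfi1 (46.6 ± 11.9) and Snai2 (24.9 ± 35.3) (SD, n = 2). Snai1 and Snai3, and Snai3 and Scrt2, were the neighbours in this order whose values did not overlap. For Gfi1 the order was Snai1 (89.8 ± 6.53), Insm1 (85.0 ± 20.9), Scrt1 (75.6 ± 16.6), Snai3 (67.7 ± 11.6), Ovol1 (58.9 ± 30.3), Snai2 (49.4 ± 4.69), Gfi1 (49.2 ± 47.8) and Scrt2 (26.7 ± 37.7) (SD, n = 2), and the values of every pair of neighbours overlapped. Insm1, Snai1 and Scrt1 were the first 3 for both factors.

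Genes of the Lsd1-CoREST complex, through which SNAG factors act, had promoter peaks throughout. All 11 of Kdm1a, Rcor1, Rcor2, Rcor3, Hdac1, Hdac2, Hmg20b, Phf21a, Gse1, Zmym2 and Zmym3 had a promoter peak in every library. This held for 6 of the 9 SNAG-domain genes and for 53.1% of protein-coding genes. High-confidence Gfi1 peaks were at 3 of the 11 promoters of this complex (background 22.9%), against 0 of the SNAG-domain genes. High-confidence Lsd1 peaks were at 8 (25.9%), against 2. Both were present at Hdac2, a histone deacetylase, Gse1 and Zmym2, and 19.5% of protein-coding genes had both. In MG tumors the paper detected Lsd1 and CoREST proteins with immunoprecipitated Gfi1, and neither Hdac1 nor Hdac2. Kdm1a, which encodes Lsd1, stood at Gfi1 percentile 85.7 and 59.8 and Lsd1 percentile 67.1 and 84.6, with no high-confidence peak. The difference between the lists of genes was not tested. Among 5 related zinc finger genes outside the set, Insm2, Ovol2, Zeb1 and Zeb2 had promoter peaks in every library (background 53.1%) and Ovol3 in none. None of these genes had a high-confidence peak of Gfi1 (background 22.9%) or of Lsd1 (25.9%).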

How the data were processed

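ChIP-seq for Gfi1 and Lsd1 was performed in 2 MG tumors. The authors aligned reads to mm10 with BWA 0.6.2, merged files with Picard, dropped duplicate reads, and ran MACS against input with its default settings. The version of MACS is not given in the sources used here. The authors deposited 1 peak list per library, with a score per peak. The lists carry no reads, so a precision per peak cannot be given. The paper gives the mapped reads of each library, which were not used here. For each factor, the library with more mapped reads had fewer peaks. Whether depth bears on the differences between the tumors was not tested.

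Peaks were read with 1-based coordinates and placed on the GENCODE M21 annotation of GRCm38 (mm10), a later release than the M9 of the authors. None of the peaks ran past a chromosome end. Percentiles, the high-confidence rule, overlaps of 1 bp and distances to TSSs were computed with Python 3.11.15, numpy 2.4.6, pandas 2.3.3, pysam 0.24.0 and samtools 1.23.1, after being tested on simulated data. Groups came from the sample titles. Named genes were the 9 members, neighbours with the highest peak of a window, cofactors with high-confidence peaks of both factors, list genes with no peak, and the 5 genes with coverage most like Gfi1, of those with at least 500 coding and 1000 intron bases. Kdm1a, the related genes with peaks, AC126029.1 and A430072P03Rik were named after their values were seen. Members and lists were chosen with earlier results of these data known. Alternatives varied the windows, score cutoffs, overlaps, TSS sets and libraries. Proteins, input reads and expression data were not used here. 1 gene of the cofactor list is not reported here and was left out of its counts.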

Additional observations from a re-analysis of the deposited data

How the results depend on the processing

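Of 89 alternative values for 22 results, 74 stayed within 1.5 times a count or 1 SD between the libraries. Several of the 22 results are 1 measure given for each library. The SD comes from 2 libraries and is wide where they differ, so this count is a loose measure of stability. Intron coverage of the Gfi1 gene in Gfi1 of tumor 41 fell from 27.5% to 0.00% at the upper 20%. With an SD of 29.4, this counted among the 74. The number of genes with a high-confidence Gfi1 peak at a promoter rose from 0 to 1 at the upper 40% of the score or with a replicate overlap of 1 bp, and to 5 with no score cutoff, since more peaks are then kept. Leaving out 1 Gfi1 library gave 1 to 5 genes, with 5 without Gfi1 of tumor 41. For Lsd1 the 2 genes became 1 at the upper 10%, 4 at the upper 40% and 7 with no cutoff, and 2 to 3 without 1 library. The share of Gfi1 peaks overlapping Lsd1, a mean of 86.0% over the tumors, was 63.3% for peaks in the upper 20% of both lists, because lower-ranking partners are then left out, and 72.0% to 100% in single tumors. On the Gfi1 gene, peaks of the upper 20% covered 0.00% of the coding exons in Gfi1 of tumor 41, Lsd1 of tumor 39 and Lsd1 of tumor 41, and 0.00% of the introns in the same 3 libraries, where the lists have no peak of that rank. With the coding exons of the principal transcripts alone, an alternative chosen after seeing the data, coverage for Lsd1 in tumor 39 was 86.9% and not 78.5%. Counts of genes with a peak in every library ran from 6 to 8 for windows and from 5 to 7 for promoters over all alternatives, including those that left out 1 library. Apart from upper 20% peaks of single libraries, given above, shares of all protein-coding genes were not computed at altered settings. Whether the counts of genes moved with that background was therefore not tested. With the Lsd1 list of the other tumor, 82.4% of the Gfi1 peaks overlapped. No paired analysis was possible because no model or test was fitted, and the pairing by tumor enters only as the differences within each tumor, which are given as values. The lists carry only a score per peak, and how this score relates to depth is not given with them.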
